A study of Mus musculus with 56 samples.

Results

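The 9 genes described here stand along the path from a stress hormone to the transcripts it changes. Nr3c1 and Nr3c2 encode the glucocorticoid and mineralocorticoid receptors, Hsd11b1 encodes an enzyme that makes active hormone inside cells, and Fkbp5, Tsc22d3, Sgk1, Zbtb16, Errfi1 and Sult1a1 are taken as genes that glucocorticoids induce. They were picked by name, with earlier results of these data known, out of the 17564 genes measured by RNA sequencing in the anterior hypothalamus of 56 mice. All mice were 9-week-old C57BL/6J females with no other allele or agent named in the labels. They had eaten freely before, and every group compared here was then under a restricted meal time, with no freely fed group beside them. Under DRF (day time-restricted feeding) chow was offered from lights on at zeitgeber time 0 (ZT0) to lights off at ZT12, and under NRF (night time-restricted feeding), the reference regimen, from ZT12 to ZT24, for 7 days. Every 4 h from ZT0 to ZT24, 4 mice of each regimen were sampled, and ZT24 was measured in other mice than ZT0. Mice were kept in groups, and which of them shared a cage is not given in the sources used here. The tissue was dissected whole, so that fewer cells of a type and less RNA per cell cannot be told apart.

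Corticosterone, the glucocorticoid of the mouse, enters cells and binds a receptor held by heat-shock proteins in the cytoplasm, and the receptor then moves to the nucleus and binds DNA at paired copies of a short motif. The mineralocorticoid receptor binds corticosterone with high affinity and is occupied at low hormone levels, while the glucocorticoid receptor is occupied as levels rise. In night-active rodents the hormone rises before the dark, and a daily meal confined to the light phase is known to add a rise before food. The hormone itself is not analysed here.

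Values are given in CPM, reads of a gene per 1000000 reads of its library after the between-sample scaling of the authors, obtained by undoing the transformation of the deposited table. Scaled library sizes ran from 29.6 to 34.5 in units of 1000000 reads, and mice of the same group correlated at 0.984 to 0.998 across transcripts. In 2 DRF libraries of ZT16, replicates 3 and 4, values moved with the GC content of the transcript (slopes 3.37 and 4.81, against -1.25 to 1.57 in the other libraries), and the results that rest on DRF at ZT16 are also given without them. All 12 marker genes fixed for the anterior hypothalamus were above 1 CPM in the median, with summed levels of 508 to 1137 CPM in DRF and 567 to 1103 CPM in NRF, and so were all 8 neuronal and all 8 astrocyte markers. The pituitary genes Gh, Prl, Fshb and Cga and the choroid plexus genes Folr1 and Kcnj13 were below 1 CPM. Summed blood-cell markers reached 2378 CPM in DRF against 526 CPM in NRF, and markers of the neighbouring striatum reached 731 against 394 CPM.

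All 9 genes passed the filter on low values (a deposited value of 1 or more in 80% of the mice), and each was backed by 182 reads or more in every mouse. Per kilobase of transcript, the 2 best covered were the glucocorticoid receptor gene Nr3c1, at 17.4 CPM per kb over all mice, and Tsc22d3, at 17.4 CPM per kb, both above 80.3% of the transcripts tested. Sgk1, Sult1a1 and Errfi1 followed at 9.68, 9.61 and 9.41 CPM per kb. Zbtb16, the mineralocorticoid receptor gene Nr3c2, Fkbp5 and Hsd11b1 were lower, at 3.59, 3.32, 2.78 and 2.23 CPM per kb.

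**Figure D1:**
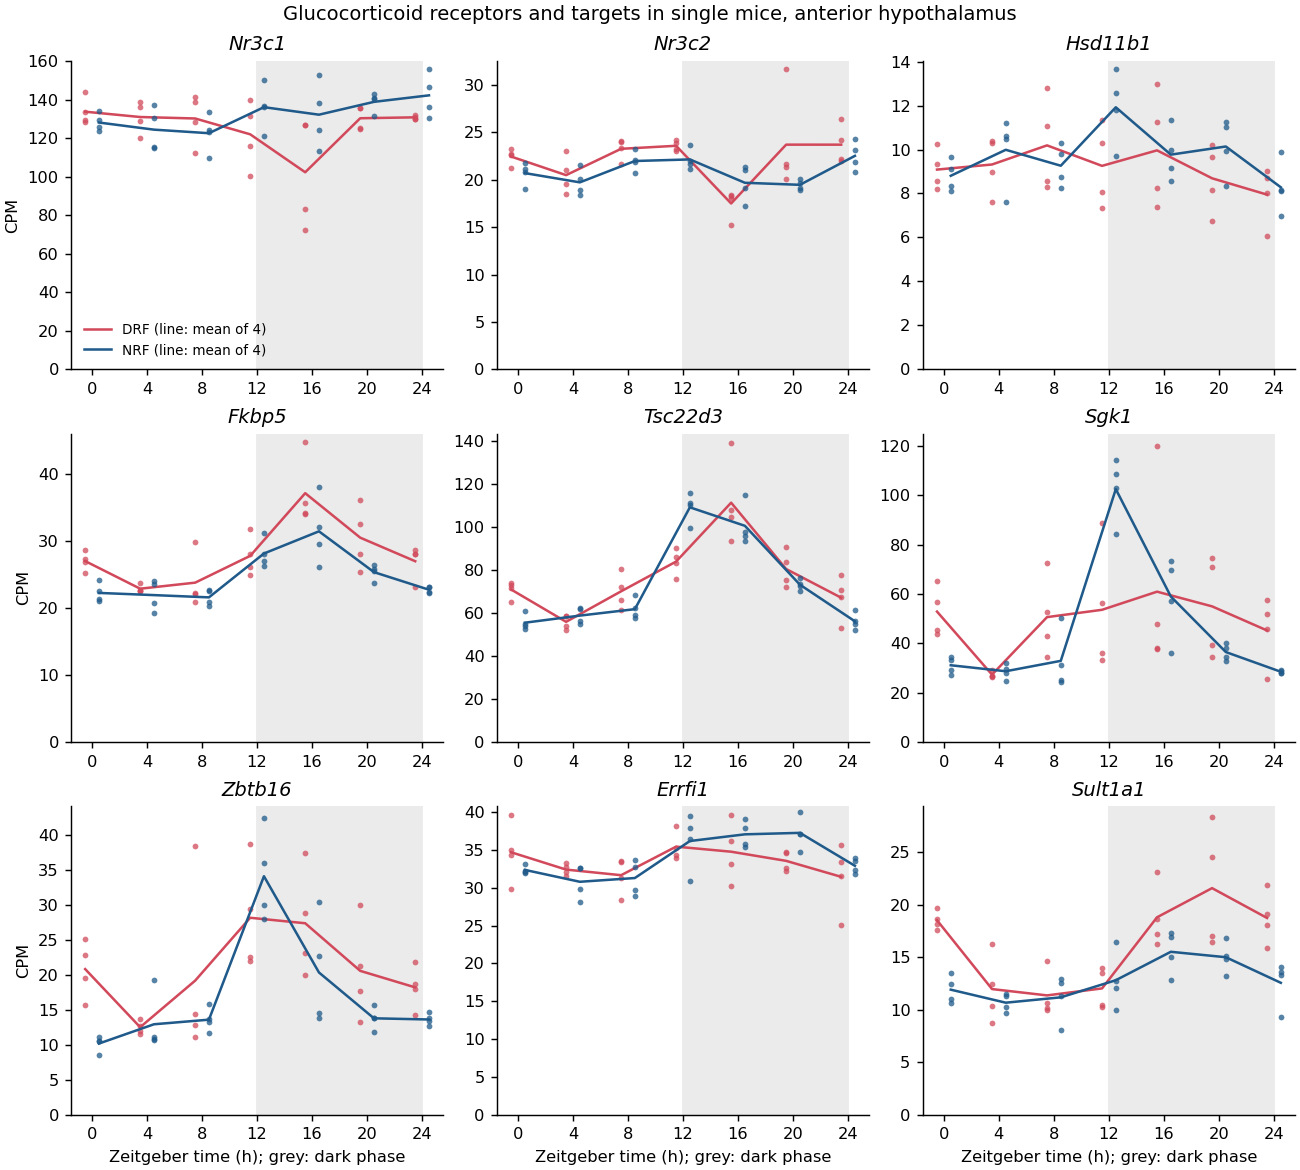
CPM of each gene (vertical axes, from 0) against zeitgeber time in h (horizontal axes), with 1 point per mouse, a line through the means of 4 mice, DRF in red and NRF in blue, and the dark phase shaded. Tsc22d3 rose to its highest NRF mean of 109 CPM at ZT12 and its highest DRF mean of 111 CPM at ZT16, while Hsd11b1 stayed between 6.05 and 13.6 CPM.

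A daily rhythm was called by joining JTK_CYCLE and Lomb-Scargle p-values for each transcript within a regimen, with Benjamini-Hochberg adjustment over 16245 transcripts and a threshold of 0.05. In NRF mice, 6 of the 9 genes were rhythmic, namely all 6 target genes, where 27.7% of all transcripts were. In DRF mice 3 were rhythmic, Fkbp5, Tsc22d3 and Sult1a1, where 0.813% of all transcripts were. Without the 2 ZT16 libraries Tsc22d3 and Sult1a1 were called in DRF and Fkbp5 was not. Neither receptor gene nor Hsd11b1 was called in either regimen. Sgk1, Zbtb16 and Errfi1 passed in NRF and not in DRF, and that alone does not show a difference, so the rhythms were compared directly with limma, by the regimen terms of a 24-h cosine on log2(CPM + 1) over 16102 transcripts. Of the 9 genes, 2 differed in rhythm, Tsc22d3 (adjusted p = 0.0385) and Sult1a1 (adjusted p = 0.0122), against 11.0% of all transcripts. These calls moved when 1 replicate number or 1 time point was left out, to between 0 and 3 of the 9 genes. Sgk1 had an adjusted p of 0.0537 and Nr3c1 of 0.0613 in that test, and the other 5 genes had adjusted p from 0.187 to 0.729.

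The fitted peaks of the target genes stayed in the dark phase under both meal times. In NRF the cosine peaked from ZT13.2 (Zbtb16) to ZT17.5 (Sult1a1), and in DRF from ZT15.7 (Zbtb16) to ZT20.0 (Sult1a1), although food was given 12 h apart. For Sgk1, Zbtb16 and Errfi1 the DRF cosine describes a course that was not called rhythmic. The peak was later in DRF by 1.51 h (95% interval 0.44 to 2.59) for Tsc22d3, by 1.58 h (95% interval 0.14 to 3.02) for Fkbp5, by 2.56 h (95% interval 0.13 to 4.99) for Zbtb16 and by 2.55 h (95% interval 0.84 to 4.27) for Sult1a1. For Sgk1 the interval included no shift, at 2.83 h (95% interval -0.58 to 6.25), and for Errfi1 the fitted shift was -0.96 h (95% interval -5.35 to 3.43). Without the 2 ZT16 libraries the DRF peaks of the targets ran from ZT15.8 to ZT19.8, and the shift was 1.52 h (0.43 to 2.60) for Tsc22d3, 1.62 h (0.11 to 3.12) for Fkbp5, 2.57 h (0.15 to 4.99) for Zbtb16, 2.40 h (0.63 to 4.16) for Sult1a1, 2.69 h (-0.07 to 5.44) for Sgk1 and -0.88 h (-3.83 to 2.07) for Errfi1. These intervals stand on the fitted cosines alone and carry no p.

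Ordered by level, the 14 groups of a gene formed a slope more than steps. Of the 13 steps between neighbours in the order, 1 separated every mouse of one group from every mouse of the next in Nr3c2, Tsc22d3, Zbtb16 and Sult1a1, and 0 did in the other 5 genes. The top group lay wholly above 11 of the other 13 groups in Fkbp5 (DRF at ZT16), Tsc22d3 (DRF at ZT16) and Sgk1 (NRF at ZT12), above 8 in Zbtb16 (NRF at ZT12) and above 7 in Errfi1 (NRF at ZT20) and Sult1a1 (DRF at ZT20). In Hsd11b1 (NRF at ZT12) and Nr3c2 (DRF at ZT20) it lay above 2, and in Nr3c1 (NRF at ZT24) above 1. The top group was picked from these same values, and such counts were not made over all transcripts. They describe each gene and do not set these genes apart from others. The highest group mean was 3.75 times the lowest in Sgk1, 3.35 times in Zbtb16 and 2.02 times in Sult1a1, against 1.21 times in Errfi1 and 1.35 times in Nr3c2. With the 2 ZT16 libraries left out the top group changed in Errfi1 alone, to DRF at ZT16, wholly above 8 groups, and the ratio moved to 1.83 in Fkbp5, 2.2 in Tsc22d3 and 1.29 in Nr3c2.

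Nr3c1, the glucocorticoid receptor gene (chromosome 18, 39410545 to 39519421, minus strand, GRCm38), varied little across the day. In NRF its level was 128 ± 4.58 at ZT0, 125 ± 11.1 at ZT4, 123 ± 9.87 at ZT8, 136 ± 11.8 at ZT12, 132 ± 17.2 at ZT16, 139 ± 5.19 at ZT20 and 142 ± 11.3 at ZT24 (CPM, mean ± SD, n = 4). Under DRF it was 134 ± 7.02 at ZT0, 131 ± 8.22 at ZT4, 130.3 ± 13.3 at ZT8, 122 ± 17.5 at ZT12, 102 ± 28.7 at ZT16, 130.5 ± 6.05 at ZT20 and 131 ± 0.858 at ZT24. The levels ran from 123 to 142 CPM over the 7 NRF means, and no step between neighbours in the order of the 14 groups separated all mice of one group from all mice of the next. At ZT16 Nr3c1 was lower in DRF, with 127, 127, 83.3 and 72.4 CPM in the 4 DRF mice and 114, 124, 138 and 153 CPM in the 4 NRF mice, a log2 difference of -0.40 ± 0.11 (SE), adjusted p = 0.00929 by limma. The 2 lowest of these DRF mice are the libraries with a GC trend, and the other 2 lay within the range of the NRF mice. With trends in GC content, length and expression removed from each library it was still called, at -0.24. Without those libraries the difference was -0.05 ± 0.10 (SE), with an adjusted p of 0.897. At the same time point 13.4% of all transcripts were called lower in DRF.

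Nr3c2, the mineralocorticoid receptor gene (chromosome 8, 76899442 to 77245012, plus strand), moved within a similarly small range. The NRF means were 20.7 ± 1.2 at ZT0, 19.7 ± 1.42 at ZT4, 22.0 ± 1.03 at ZT8, 22.1 ± 1.09 at ZT12, 19.7 ± 1.94 at ZT16, 19.5 ± 0.515 at ZT20 and 22.5 ± 1.48 at ZT24 CPM (± SD, n = 4). Those of DRF were 22.4 ± 0.862 at ZT0, 20.5 ± 1.96 at ZT4, 23.2 ± 1.14 at ZT8, 23.6 ± 0.548 at ZT12, 17.5 ± 1.51 at ZT16, 23.7 ± 5.36 at ZT20 and 23.7 ± 2.05 at ZT24 CPM. No time point passed the test between the regimens, and the smallest adjusted p was at ZT20, where the DRF mice had 20.1, 31.7, 21.3 and 21.7 CPM and the NRF mice 19.6, 19.2, 20.1 and 18.9 CPM (log2 difference 0.25 ± 0.08 (SE), adjusted p = 0.128 by limma). All but 1 value of either group lay between 18.9 and 21.7 CPM, and the exception was DRF replicate 2. Within DRF it fell between ZT12 and ZT16, when food was taken away, from 23.0, 24.2, 23.8 and 23.2 to 18.2, 18.4, 15.2 and 18.1 CPM, with no overlap (log2 change -0.41 ± 0.08 (SE), adjusted p = 0.00127 by limma). Without the 2 libraries with a GC trend this change was -0.35, with an adjusted p of 0.0576.

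Hsd11b1 (chromosome 1, 193221634 to 193264075, minus strand), whose enzyme turns the inactive 11-keto steroid back into corticosterone, had the lowest level of the 9 per kilobase. Its means under NRF were 8.81 ± 0.708 at ZT0, 9.99 ± 1.60 at ZT4, 9.26 ± 0.940 at ZT8, 11.9 ± 1.67 at ZT12, 9.77 ± 1.19 at ZT16, 10.1 ± 1.33 at ZT20 and 8.28 ± 1.19 at ZT24 CPM (± SD, n = 4). DRF mice had means of 9.09 ± 0.899 at ZT0, 9.32 ± 1.30 at ZT4, 10.2 ± 2.15 at ZT8, 9.26 ± 1.87 at ZT12, 9.96 ± 2.60 at ZT16, 8.69 ± 1.55 at ZT20 and 7.95 ± 1.33 at ZT24 CPM. Its NRF maximum came at ZT12, with 9.69, 11.8, 13.6 and 12.6 CPM, and the DRF mice at that time had 10.3, 11.3, 7.32 and 8.09 CPM. The ranges overlapped, and the log2 difference of -0.34 ± 0.15 (SE), adjusted p = 0.216, did not pass in limma.

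Fkbp5 (chromosome 17, 28399094 to 28517527, minus strand) encodes a co-chaperone that joins the receptor complex and lowers its affinity for hormone. It was rhythmic in both regimens. Fkbp5 in NRF was 22.2 ± 1.41 at ZT0, 21.9 ± 2.32 at ZT4, 21.6 ± 1.21 at ZT8, 28.1 ± 2.14 at ZT12, 31.4 ± 5.07 at ZT16, 25.3 ± 1.18 at ZT20 and 22.7 ± 0.490 at ZT24 CPM (mean ± SD, n = 4), with an adjusted rhythm p of 4.02e-05. Fkbp5 in DRF was 27.0 ± 1.43 at ZT0, 22.8 ± 0.588 at ZT4, 23.8 ± 4.13 at ZT8, 27.7 ± 3.0 at ZT12, 37.1 ± 5.12 at ZT16, 30.5 ± 4.71 at ZT20 and 26.9 ± 2.55 at ZT24 CPM, with an adjusted p of 0.0244. The highest mean was at ZT16 in both, with 44.7, 34.1, 33.9 and 35.7 CPM in the DRF mice and 32.0, 38.0, 26.0 and 29.5 CPM in the NRF mice, and these ranges overlapped. The fitted log2 amplitude was 0.30 ± 0.05 (SE) in DRF and 0.25 ± 0.04 (SE) in NRF. Averaged over the day Fkbp5 was 1.12-fold higher in DRF (log2 difference 0.16 ± 0.04 (SE), adjusted p = 0.00380 by limma).

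Tsc22d3 (chromosome X, 140539528 to 140600659, minus strand) encodes the glucocorticoid-induced leucine zipper protein, which restrains inflammatory transcription. It had the smallest adjusted p for rhythm of the 9 in both regimens. The NRF level was 55.5 ± 3.78 at ZT0, 58.8 ± 3.90 at ZT4, 61.8 ± 4.79 at ZT8, 109 ± 6.84 at ZT12, 101 ± 9.83 at ZT16, 73.2 ± 2.62 at ZT20 and 56.1 ± 3.91 at ZT24 CPM (mean ± SD, n = 4), with an adjusted p of 1.38e-06 and a cosine that held 86.5% of the variance. The DRF level was 70.9 ± 3.85 at ZT0, 55.9 ± 3.35 at ZT4, 70.1 ± 8.30 at ZT8, 83.9 ± 6.05 at ZT12, 111 ± 19.4 at ZT16, 80.5 ± 8.52 at ZT20 and 67.1 ± 10.4 at ZT24 CPM, with an adjusted p of 1.0e-04 and 72.6% of the variance. The fitted log2 amplitude was 0.50 ± 0.04 (SE) in NRF and 0.39 ± 0.05 (SE) in DRF. At ZT0 the DRF mice had 65.3, 72.9, 71.8 and 73.8 CPM and the NRF mice 61.0, 53.7, 52.5 and 54.7 CPM. Every DRF mouse was above every NRF mouse (log2 difference 0.35 ± 0.09 (SE), adjusted p = 0.0180 by limma). At ZT12 the order was the opposite, with 76.0, 83.1, 90.3 and 86.3 CPM in DRF and 110.2, 99.5, 116 and 111 CPM in NRF, again without overlap (log2 difference -0.38 ± 0.09 (SE), adjusted p = 0.0309 by limma).

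Sgk1 (chromosome 10, 21882184 to 21999903, plus strand) encodes the serum- and glucocorticoid-regulated kinase, which acts on ion channels and transporters. Of the RefSeq promoter windows of GRCm38.p6, one of its 6 holds the full palindrome that the receptor binds as a dimer, AGAACA and TGTTCT 3 bases apart, and this window is shown because only 3 of 32851 windows hold it without a mismatch. It runs 5′ to 3′ on the plus strand at chr10:21993640-21993939, from 250 bases before to 50 bases after the transcription start, and the capitals mark the 12 fixed bases of the palindrome, whose first base lies 189 bases before the start.
Sgk1 promoter: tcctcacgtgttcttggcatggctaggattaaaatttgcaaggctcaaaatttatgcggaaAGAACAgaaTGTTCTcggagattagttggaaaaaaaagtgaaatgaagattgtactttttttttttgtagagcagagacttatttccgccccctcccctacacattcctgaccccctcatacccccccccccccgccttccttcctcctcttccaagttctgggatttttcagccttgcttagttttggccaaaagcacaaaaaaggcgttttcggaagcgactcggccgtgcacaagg

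Sgk1 rose steeply in NRF between ZT8 and ZT12, before the dark phase began. Its NRF level was 31.1 ± 3.45 at ZT0, 28.7 ± 3.11 at ZT4, 32.9 ± 12.0 at ZT8, 102 ± 12.9 at ZT12, 59.0 ± 16.9 at ZT16, 36.5 ± 3.38 at ZT20 and 28.5 ± 0.610 at ZT24 CPM (mean ± SD, n = 4), with an adjusted rhythm p of 0.000429. In DRF it was 52.9 ± 10.1 at ZT0, 27.3 ± 1.34 at ZT4, 50.6 ± 16.4 at ZT8, 53.6 ± 25.7 at ZT12, 60.9 ± 39.8 at ZT16, 55.0 ± 20.8 at ZT20 and 45.2 ± 13.9 at ZT24 CPM, and the adjusted p was 1. The ratio of the highest to the lowest mean was 3.60 in NRF and 2.23 in DRF. Mean summed markers of NRF mice also moved from ZT8 to ZT12. Oligodendrocyte markers went from 6597 to 8395 CPM, thalamus markers from 370 to 619 CPM and anterior hypothalamus markers from 965 to 703 CPM. Astrocyte markers stood at 3658 and 3654 CPM. Their part in the rise of Sgk1, or in the NRF levels of the other genes at ZT12, was not tested. At ZT12 the NRF mice had 103, 84.3, 108 and 114 CPM and the DRF mice 33.1, 36.1, 88.9 and 56.2 CPM. The highest DRF mouse reached into the NRF range and the other 3 lay below it, and Sgk1 was 2.04-fold lower in DRF (log2 difference -1.03 ± 0.28 (SE), adjusted p = 0.0451 by limma). That call was close to the threshold and was lost when any replicate number was left out. At ZT0 the DRF mice had 45.5, 65.4, 43.9 and 56.7 CPM and the NRF mice 34.6, 29.4, 27.1 and 33.4 CPM. All 4 DRF mice were above the NRF mice, but the log2 difference of 0.73 ± 0.28 (SE), adjusted p = 0.128, did not pass over all transcripts.

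The DRF mice differed among themselves in Sgk1 more than in any other of the 9 genes. At ZT16 the 4 DRF mice had 120.1, 37.8, 47.8 and 38.0 CPM, and at ZT20 they had 34.7, 74.7, 71.1 and 39.4 CPM. At ZT4 they were close together, at 26.2, 26.9, 26.9 and 29.3 CPM. The SD within groups on the log2 scale came to 0.517 under DRF and 0.275 under NRF, with 1.88 as their ratio. For comparison the median over all transcripts was 0.124 in DRF and 0.0962 in NRF, with a median ratio of 1.27. The ratio was above 1 in all 9 genes, from 1.21 for Sult1a1 to that of Sgk1, and above the median of all transcripts in every one but Sult1a1. When the 2 ZT16 libraries were left out the ratio of Nr3c1 went from 1.61 to 0.978, the others ran from 1.23 (Sult1a1) to 1.89 (Sgk1), and the median of all transcripts was 1.12.

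Zbtb16 (chromosome 9, 48654297 to 48836222, minus strand) encodes a zinc-finger repressor of transcription. Its NRF means were 10.2 ± 1.09 at ZT0, 13.0 ± 4.19 at ZT4, 13.6 ± 1.68 at ZT8, 34.2 ± 6.49 at ZT12, 20.4 ± 7.81 at ZT16, 13.8 ± 1.58 at ZT20 and 13.6 ± 0.826 at ZT24 CPM (mean ± SD, n = 4), with an adjusted rhythm p of 0.000414. In DRF it was 20.9 ± 4.10 at ZT0, 12.5 ± 0.935 at ZT4, 19.2 ± 12.9 at ZT8, 28.2 ± 7.79 at ZT12, 27.4 ± 7.64 at ZT16, 20.6 ± 7.07 at ZT20 and 18.2 ± 3.14 at ZT24 CPM, with an adjusted p of 0.961. Its largest difference was at ZT0, where the DRF mice had 25.2, 19.6, 15.8 and 22.8 CPM and the NRF mice 10.5, 8.60, 11.1 and 10.6 CPM. All DRF mice were above all NRF mice, 1.93-fold on the log2(CPM + 1) scale (log2 difference 0.95 ± 0.24 (SE), adjusted p = 0.0141 by limma). At ZT12 the levels of 29.4, 38.8, 22.6 and 22.1 CPM in DRF and 36.0, 28.1, 30.1 and 42.5 CPM in NRF overlapped (log2 difference -0.29 ± 0.24 (SE), adjusted p = 0.601).

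Errfi1 (chromosome 4, 150853919 to 150868892, plus strand) encodes an inhibitor of the epidermal growth factor receptor. Its amplitude was the smallest of the target genes. NRF mice had means of 32.4 ± 0.559 at ZT0, 30.8 ± 2.17 at ZT4, 31.3 ± 2.31 at ZT8, 36.2 ± 3.71 at ZT12, 37.1 ± 1.79 at ZT16, 37.3 ± 2.15 at ZT20 and 32.9 ± 0.990 at ZT24 CPM (mean ± SD, n = 4), with an adjusted rhythm p of 0.000217 and a log2 amplitude of 0.16 ± 0.02 (SE). In DRF it was 34.7 ± 4.03 at ZT0, 32.4 ± 0.711 at ZT4, 31.7 ± 2.42 at ZT8, 35.5 ± 1.92 at ZT12, 34.8 ± 4.02 at ZT16, 33.6 ± 1.27 at ZT20 and 31.5 ± 4.58 at ZT24 CPM, with an adjusted p of 1 and an amplitude of 0.06 ± 0.04 (SE). No time point passed the test between the regimens, with log2 differences between -0.15 and 0.09, and the test of a difference in rhythm gave an adjusted p of 0.255.

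Sult1a1 (chromosome 7, 126672865 to 126676432, minus strand) encodes a sulfotransferase that conjugates phenols. Its highest mean was that of DRF at ZT20. Sult1a1 in NRF was 11.9 ± 1.33 at ZT0, 10.7 ± 0.854 at ZT4, 11.2 ± 2.2 at ZT8, 12.8 ± 2.71 at ZT12, 15.5 ± 2.08 at ZT16, 15.0 ± 1.46 at ZT20 and 12.6 ± 2.21 at ZT24 CPM (mean ± SD, n = 4), with an adjusted rhythm p of 0.00237. Sult1a1 in DRF was 18.5 ± 0.90 at ZT0, 12.0 ± 3.24 at ZT4, 11.4 ± 2.21 at ZT8, 12.0 ± 1.98 at ZT12, 18.8 ± 3.05 at ZT16, 21.6 ± 5.84 at ZT20 and 18.8 ± 2.50 at ZT24 CPM, with an adjusted p of 0.00508. The log2 amplitude was 0.49 ± 0.07 (SE) in DRF and 0.26 ± 0.06 (SE) in NRF, and the test of rhythm covers amplitude and peak together. At ZT0 the DRF mice had 19.7, 18.2, 17.6 and 18.6 CPM and the NRF mice 13.5, 12.5, 10.6 and 11.0 CPM, without overlap (log2 difference 0.60 ± 0.16 (SE), adjusted p = 0.0187 by limma). At ZT24, in other mice, the levels were 18.1, 19.1, 21.9 and 15.9 and 13.3, 14.1, 9.29 and 13.6 CPM, again without overlap, but the log2 difference of 0.55 ± 0.16 (SE), adjusted p = 0.146, did not pass. Its reads were recovered to 2 decimals rather than as whole reads.

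Counted by adjusted p over the 9 genes, most differences that passed at the same zeitgeber time were those at ZT0 and ZT12. At ZT0, when food was due for DRF mice and withdrawn from NRF mice, 3 genes were higher in DRF, Tsc22d3, Zbtb16 and Sult1a1, where 2.36% of all transcripts were higher. At ZT12, 2 were lower in DRF, Tsc22d3 and Sgk1, where 0.522% of all transcripts were lower. The median log2 difference of the 9 genes was 0.27 at ZT0 and -0.16 at ZT12, and the median over all transcripts was -0.0014 and 0.0032. With 1 replicate number left out of every group, 3 mice against 3, between 0 and 5 of the differences at any time passed, and the Tsc22d3, Zbtb16, Sult1a1 and Sgk1 differences kept their direction. At ZT0 the call of Sult1a1 was lost whichever number was left out, that of Tsc22d3 without replicate 2, 3 or 4, and that of Zbtb16 without replicate 1, 2 or 4. At ZT12 that of Tsc22d3 was lost without replicate 1, 3 or 4. At ZT0, 3 of 8 endothelial markers were lower in DRF (median log2 difference -0.23), and its part in the result was not tested. At ZT12, 1 of 8 oligodendrocyte markers was lower in DRF (median -0.44), and 1 of 6 striatum and 1 of 6 ependymal and tanycyte markers were higher (medians 1.22 and 0.30). Mean summed thalamus markers were then 371 CPM in DRF and 619 CPM in NRF, and those of the anterior hypothalamus 842 and 703 CPM. Summed striatum markers at ZT12 were 182, 163, 532 and 731 CPM in the 4 DRF mice and 174, 161, 141 and 158 CPM in the NRF mice. The 2 DRF mice high in striatum markers, replicates 3 and 4, were also the 2 highest of the 4 in Sgk1, Tsc22d3, Fkbp5, Errfi1 and Sult1a1. They were the 2 lowest in Nr3c1, Hsd11b1 and Zbtb16. The part of any of these markers in the ZT12 differences was not tested. At ZT16 only Nr3c1 was called, and it was not called without the 2 libraries. At ZT4, ZT8, ZT20 and ZT24, where 3.92%, 0.174%, 1.13% and 0.273% of all transcripts were called in either direction, 0 of the 9 genes passed by limma and 0 by limma with voom weights, and 2.79% of all transcripts were higher in DRF at ZT4. At an unadjusted p under 0.05 there were 0, 1, 4 and 4 genes at these times, and 5, 3 and 2 at ZT0, ZT12 and ZT16. By that count ZT20 and ZT24 held more genes than ZT12. ZT0 and ZT24 are the same point of the cycle in other mice, and the log2 differences of Tsc22d3, Sgk1, Zbtb16 and Sult1a1 were 0.35, 0.73, 0.95 and 0.60 at ZT0 and 0.24, 0.59, 0.38 and 0.55 at ZT24.

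**Figure D2:**
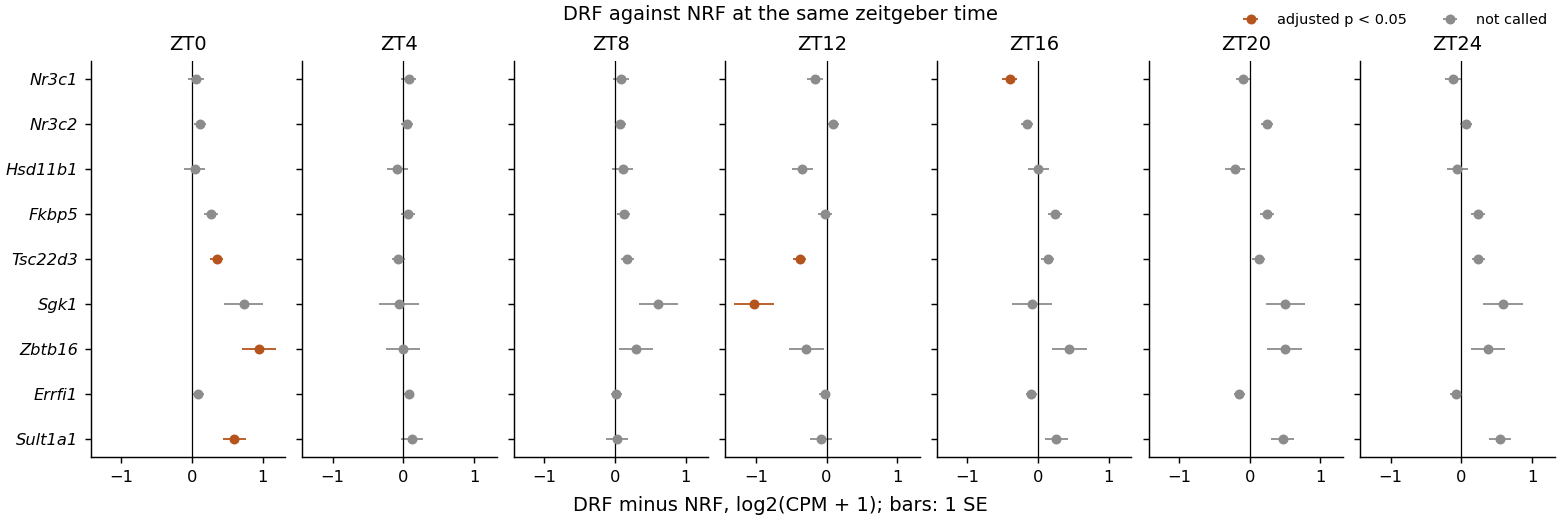
Difference DRF minus NRF of each gene on the log2(CPM + 1) scale (horizontal axes, bars 1 SE from limma) at each of the 7 time points (panels), in orange where the adjusted p was under 0.05. Most points of the target genes lie right of 0 at ZT0 and ZT24, and those of Tsc22d3 (-0.38) and Sgk1 (-1.03) lie left of it at ZT12.

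Averaged over the 7 time points, 3 of the 9 genes were higher in DRF by limma, where 5.59% of all transcripts were. They were Fkbp5 (1.12-fold), Zbtb16 (1.25-fold, log2 difference 0.33 ± 0.09 (SE), adjusted p = 0.0180) and Sult1a1 (1.21-fold, log2 difference 0.28 ± 0.06 (SE), adjusted p = 0.00299). None was lower, and Nr3c1 had a log2 difference of -0.08 ± 0.04 (SE), adjusted p = 0.217. Without the 2 ZT16 libraries Tsc22d3 passed as well, at 0.10 ± 0.03 (adjusted p = 0.0484), and without replicate 3 of every group 0 of the 9 passed. All 5 blood-cell markers were also called higher in DRF over the day, with a median log2 difference of 0.52 and summed levels of 218 to 2378 CPM in DRF and 193 to 526 CPM in NRF, and 4 of 8 oligodendrocyte markers were lower (median -0.14). The part of either in the result was not tested.

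The steps across the changes of meal were looked at after the values had been seen. From the mean of ZT0 and ZT24 to ZT4, the first 4 h with food, 3 of the 9 genes fell in DRF, where 2.71% of all transcripts fell. Tsc22d3 fell by 0.29 on the log2 scale (adjusted p = 0.0174), Sgk1 fell by 0.78 (adjusted p = 0.0400) and Sult1a1 fell by 0.63 (adjusted p = 0.00323). The fall of Sgk1 was not called with voom weights, with the deposited values or without replicate 2, 3 or 4, that of Tsc22d3 not without replicate 2, 3 or 4, and that of Sult1a1 not without replicate 1. In Sgk1 the 4 DRF mice at ZT4 lay at 26.2, 26.9, 26.9 and 29.3 CPM, and those at ZT24 at 25.6, 51.8, 57.4 and 46.0 CPM. In NRF the same step, in mice that had just lost food, called 0 of the 9 genes by limma, 0 at an unadjusted p under 0.05 and 0 with voom weights, where 8.60% of all transcripts were called. The difference between these steps was called for Tsc22d3 (-0.37 ± 0.11 (SE), adjusted p = 0.0337), against 3.13% of all transcripts in that direction. It was not called with the deposited values or without replicate 2, 3 or 4. For Sgk1, Zbtb16 and Sult1a1 it was -0.72, -0.67 and -0.45, with adjusted p of 0.209, 0.173 and 0.157.

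From ZT12 to ZT16 DRF mice lost food and NRF mice gained it. In DRF, Fkbp5, Tsc22d3 and Sult1a1 rose, by 0.40, 0.39 and 0.60 on the log2 scale (adjusted p = 0.00599, 0.00494 and 0.0104), and Nr3c2 fell, where 17.1% of all transcripts were called in either direction. Upward alone, 6.38% of all transcripts were called. In the same step 3 of 6 striatum markers fell (median -1.19), 2 of 8 astrocyte markers rose and 1 fell, and 1 of 8 endothelial markers rose and 2 fell, and their part in these changes was not tested. The 3 rises were called without the 2 libraries with a GC trend as well, at 0.48, 0.52 and 0.75. With a replicate number left out, the rise of Fkbp5 was not called without replicate 1 or 3. That of Tsc22d3 was not called without replicate 3, and that of Sult1a1 not without replicate 1 or 2. In NRF, Sgk1 changed by -0.83 (adjusted p = 0.0939) and Zbtb16 by -0.77 (adjusted p = 0.0671), and 0 of the 9 genes passed by limma, where 3.23% of all transcripts did. At an unadjusted p under 0.05 there were 3, and 1 passed with voom weights. The difference between the regimens in this step was largest for Sgk1, at 0.94 ± 0.40 (SE), adjusted p = 0.239, and smallest in p for Tsc22d3, at 0.51 ± 0.13 (SE), adjusted p = 0.0629. None of the 9 passed, where 0.329% of all transcripts did, 4 had an unadjusted p under 0.05, and without the 2 libraries Tsc22d3 passed, at 0.64 ± 0.14 (adjusted p = 0.0304).

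The 2 regimens share the light cycle and differ by 12 h in the meal, and each gene can be compared at the same zeitgeber time or at the same time since food was given. With ZT0 and ZT24 taken as 1 time, limma F tests over 6 times called 5 of the 9 genes different at the same zeitgeber time (26.0% of all transcripts) and 6 different at the same time since food (29.6%). The 6 were all target genes, and Errfi1 was the one that differed only in the second test (adjusted p = 0.529 by light and 0.00900 by food). The size of the mismatch was given by the root mean square of the 6 log2 differences. For Tsc22d3 it was 0.223 by light and 0.634 by food, 2.84 times as large. The ratio was 2.28 for Fkbp5, 2.06 for Errfi1, 1.87 for Zbtb16, 1.73 for Sult1a1 and 1.41 for Sgk1. Hsd11b1, Nr3c2 and Nr3c1 had ratios of 1.10, 1.01 and 0.831. The ratio was above 1 in 8 of the 9 genes and in 53.3% of all transcripts, with a median of 1.02 over all. Without the 2 ZT16 libraries the ratios of the 6 target genes ran from 1.5 (Sgk1) to 2.75 (Tsc22d3), with 0.925 for Nr3c1. Both alignments use the same mice, and the ratio itself was not tested.

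**Figure D3:**
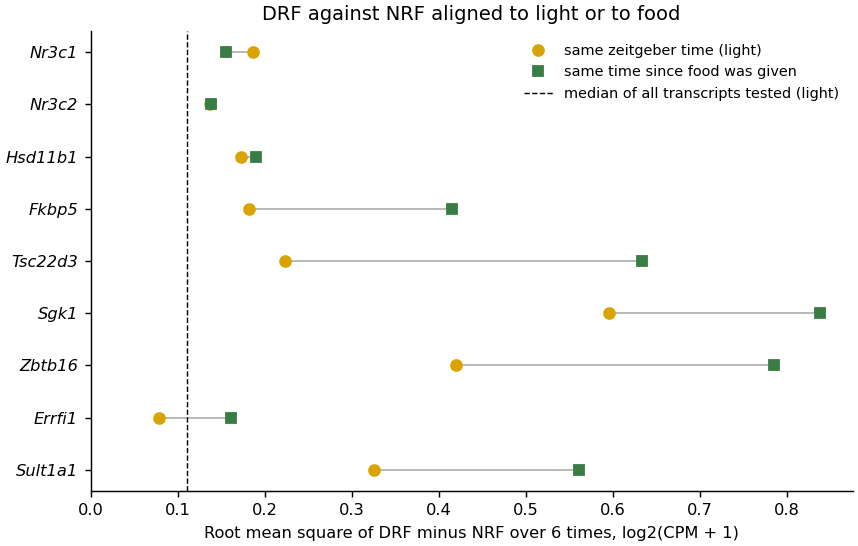
Root mean square of DRF minus NRF over 6 times (horizontal axis, log2(CPM + 1) scale) for each gene when the regimens are matched on zeitgeber time (circles) or on time since food was given (squares), with the median of all transcripts for the first as a dashed line. The squares lie right of the circles for the 6 target genes, furthest for Tsc22d3 (0.223 against 0.634).

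DRF mice at ZT0 and ZT24 and NRF mice at ZT12 were all sampled when food was due, at opposite ends of the light phase. Compared so, 5 of the 9 genes differed by limma, where 4.69% of all transcripts did. Tsc22d3, Sgk1, Zbtb16 and Hsd11b1 were lower before the DRF meal, by log2 differences of -0.66, -1.08, -0.78 and -0.44 (adjusted p = 3.97e-07, 0.00473, 0.0224 and 0.0314). Sult1a1 was higher, at 0.52 ± 0.14 (SE), adjusted p = 0.0187. The call of Hsd11b1 was lost with array weights and without replicate 1, 3 or 4. That of Zbtb16 was lost on log2(deposited value + 1) and without replicate 1, 3 or 4. Without replicate 2 or 3 the call of Sult1a1 was lost, and without replicate 3 that of Sgk1. Fkbp5 had a log2 difference of -0.06 ± 0.08 (SE), adjusted p = 0.789. For Sgk1 the DRF mice lay between 25.6 and 65.4 CPM and the NRF mice between 84.3 and 114 CPM. Mean summed oligodendrocyte markers were 5588 CPM in DRF at ZT0, 6533 CPM in DRF at ZT24 and 8395 CPM in NRF at ZT12. In the same order, thalamus markers summed to 377, 471 and 619 CPM and anterior hypothalamus markers to 927, 769 and 703 CPM. Their part in these differences was not tested.

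Mice of the same regimen and time still differed, and several of the target genes varied together. Each mouse's deviation from the mean of its group was correlated between genes over the 56 mice, with a permutation test (100000 draws, two-sided) that exchanges mice within groups, for all 36 pairs. After adjustment over the 36 pairs, 9 passed by Pearson's r. The share of pairs of all transcripts that would pass was not computed. The strongest was Tsc22d3 with Sgk1 (r = 0.785 and rho = 0.772, permutation p = 1e-05 and 1e-05, adjusted over the pairs 0.000360 and 0.000360, the smallest p these permutations can give), and r was 0.713 without the 2 mice farthest in Tsc22d3. Over all 16101 other transcripts, Sgk1 was the one that correlated best with Tsc22d3. Tsc22d3 also went with Errfi1 (r = 0.638 and rho = 0.542, permutation p = 7.00e-05 and 0.000230, adjusted over the pairs 0.000960 and 0.00207) and Fkbp5 with Sult1a1 (r = 0.573 and rho = 0.590, permutation p = 8.00e-05 and 8.00e-05, adjusted over the pairs 0.000960 and 0.00120). The other 6 pairs included Fkbp5 with Tsc22d3 (r = 0.561) and with Zbtb16 (0.559) and Tsc22d3 with Sult1a1 (0.566). The rest were Sgk1 with Errfi1 (0.528) and with Sult1a1 (0.531), and Nr3c1 with Errfi1 (0.50). Fkbp5 with Zbtb16 did not pass by rho (0.405, adjusted permutation p = 0.0582), and its r was 0.402 without the 2 mice farthest in Fkbp5. Errfi1 ranked 3011 of 16101 transcripts by r with Nr3c1. In the remaining pairs that passed, besides Tsc22d3 with Sgk1, the second gene named ranked 11 to 97 by r with the first. Nr3c1 with Hsd11b1 passed by rho (0.456, adjusted permutation p = 0.0280) and not by r (0.420, adjusted permutation p = 0.110).

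Other pairs of targets did not pass. Sgk1 and Zbtb16, whose group means ran close, were not correlated past the threshold between mice (r = 0.153 and rho = 0.0117, permutation p = 0.409 and 0.947, adjusted over the pairs 0.545 and 0.971). Within DRF 8 of the 36 pairs passed and within NRF 0, where 7 had an unadjusted permutation p under 0.05. Tsc22d3 with Sgk1 had r = 0.868 within DRF and r = 0.530 within NRF, and the difference between the regimens was not tested. Without the 2 ZT16 libraries 11 pairs passed. In 2 DRF mice, replicate 3 of ZT8 and replicate 1 of ZT16, all 6 target genes were the highest of their group.

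**Figure D4:**
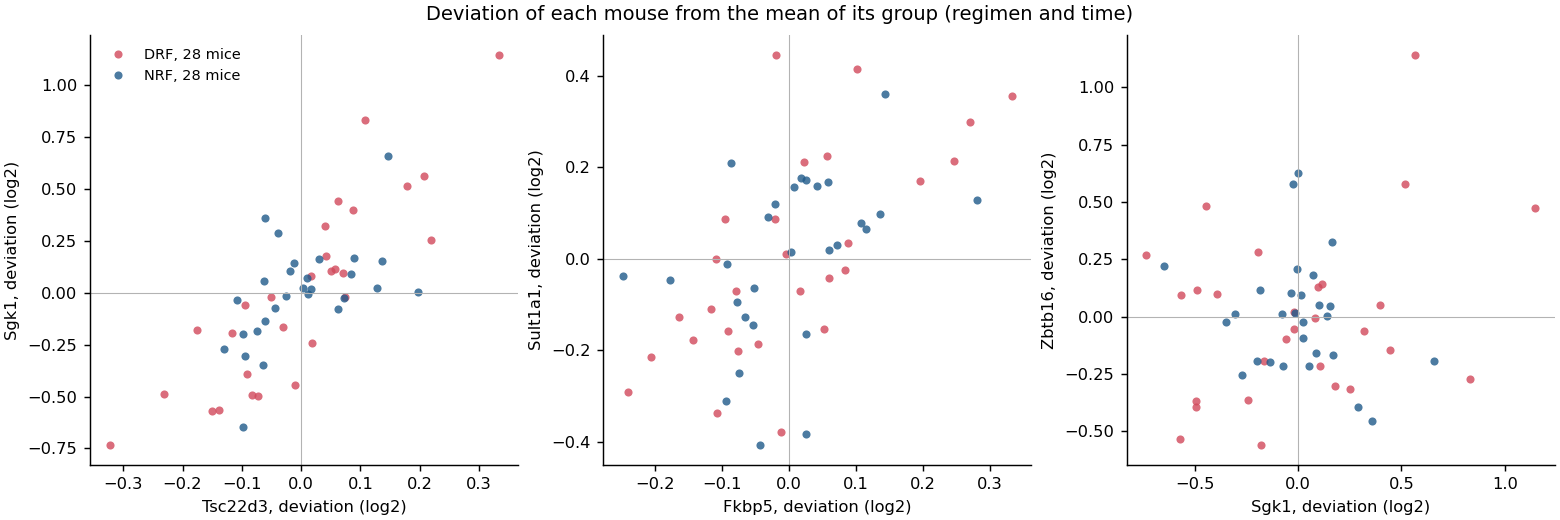
Deviation of each mouse from the mean of its regimen and time on the log2(CPM + 1) scale for 3 pairs of genes, with 1 point per mouse (28 DRF in red, 28 NRF in blue). Tsc22d3 and Sgk1 rise together (r = 0.785), as do Fkbp5 and Sult1a1 (r = 0.573), and Sgk1 and Zbtb16 show no such slope (r = 0.153).

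The transcripts with the most similar course over the 14 group means were found among 12076 transcripts by Pearson's r on the log2 scale, a description over points that share libraries. Fkbp5 was closest to Plin4 (0.966), Gpt2 (0.959) and Klf15 (0.951). Tsc22d3 was closest to Slc2a1 (0.952), Sdc4 (0.952) and Kcnn2 (0.940), where Slc2a1 encodes the glucose transporter of the blood-brain barrier. Sgk1 was closest to Klf9 (0.944), Arl4d (0.941) and Mertk (0.921), and Zbtb16 to Mertk (0.927), Hif3a (0.904) and Sgk1 (0.898). Klf9 and Klf15 are transcription factors known as glucocorticoid targets. Errfi1 was closest to Bfar (0.895), Lonrf1 (0.887) and Mgp (0.877), and Sult1a1 to Prodh (0.898), Pnpla7 (0.881) and Acot11 (0.864), of which Prodh encodes the first enzyme of proline breakdown. Nr3c1 ran close to Klhl10 (0.979) and Mier1 (0.979). Its r was above 0.9 with 2.78% of transcripts, against 0.0828% for Fkbp5, and its lowest mean was that of DRF at ZT16, which holds the libraries with a GC trend. With those libraries left out the r of Nr3c1 was 0.786 and 0.879, and for the transcripts named beside the 6 target genes it was 0.802 to 0.961. Nr3c2 and Hsd11b1 were left out, since neither was called by the joined test of rhythm, by the test of a difference in rhythm, between the regimens at the same time or over the day, or in either alignment.

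Other genes known to respond to glucocorticoids were taken as a list of 40, of which 39 were tested. In NRF 28 were rhythmic and in DRF 14, where 27.7% and 0.813% of all transcripts were. By limma 13 differed in rhythm, where 11.0% of all transcripts did. At ZT0 11 were higher in DRF and 0 lower, where 2.36% and 2.12% of all transcripts were. The median log2 difference was 0.15, against -0.0014 over all transcripts. The largest difference was that of Hif3a, a hypoxia-inducible factor subunit, at 1.80 ± 0.20 (adjusted p = 1.39e-07), followed in p by the syndecan gene Sdc4 at 0.37 and the metallothionein gene Mt1 at 0.57. At ZT12 0 were higher and 8 lower (median -0.16, against 0.0032), among them Arrdc2 at -0.63 and Rhob at -0.24. Of all transcripts 0.522% were lower then. Over the day 16 were higher in DRF and 1 lower (17 and 1 without the 2 ZT16 libraries), where 5.59% of all transcripts were higher. Klf15 led, at 0.17 ± 0.02 (adjusted p = 1.58e-05).

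In the first 4 h with food 14 of these 39 fell in DRF and 0 rose, where 2.71% and 4.16% of all transcripts did. Hif3a fell by 1.56, the perilipin gene Plin4 fell by 1.32 and the metallothionein gene Mt2 fell by 0.89 on the log2 scale (adjusted p = 1.21e-07, 0.000821 and 2.29e-07). Mt2 also had the smallest p for a difference in rhythm (adjusted p = 6.87e-14), and was 2.36-fold higher in DRF at ZT20. Matched on light 26 of the 39 differed (26.0% of all transcripts) and matched on food 34 (29.6%). At ZT16 7 were higher in DRF, where 6.69% of all transcripts were, and 0 without the 2 libraries with a GC trend.

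The chaperones that hold the receptor, a list of 14, were lower in DRF at ZT0 where they passed. There 4 were lower in DRF, where 2.12% of all transcripts were, and 0 higher (median log2 difference -0.22), among them Stip1, which links Hsp70 and Hsp90, at -0.46 ± 0.06 (adjusted p = 2.10e-06) and Hspa8, a constitutive Hsp70, at -0.29 ± 0.05 (adjusted p = 9.86e-05). At ZT24, the same point of the cycle in other mice, 0 passed in either direction (median -0.15), where 0.273% of all transcripts did. In the first 4 h with food 5 rose in DRF, where 4.16% of all transcripts rose, led by Fkbp4, a co-chaperone that opposes Fkbp5, at 0.33, and Dnajb1, an Hsp40, at 0.44 on the log2 scale (adjusted p = 4.27e-05 and 0.000335). From ZT12 to ZT16, 6 rose in NRF, where 1.94% of all transcripts rose. In DRF 6 rose (5 without the 2 ZT16 libraries), where 6.38% of all transcripts rose. In NRF 12 of the 14 were rhythmic, where 27.7% of all transcripts were. In DRF 0 were rhythmic by the joined test (0.813% of all transcripts), 2 had an unadjusted p under 0.05 and 0 passed the limma cosine. By limma 7 differed in rhythm (11.0% of all transcripts), Stip1, Hspa8 and St13 with the smallest p (adjusted p = 0.000355, 0.000371 and 0.000413).

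**Figure D5:**
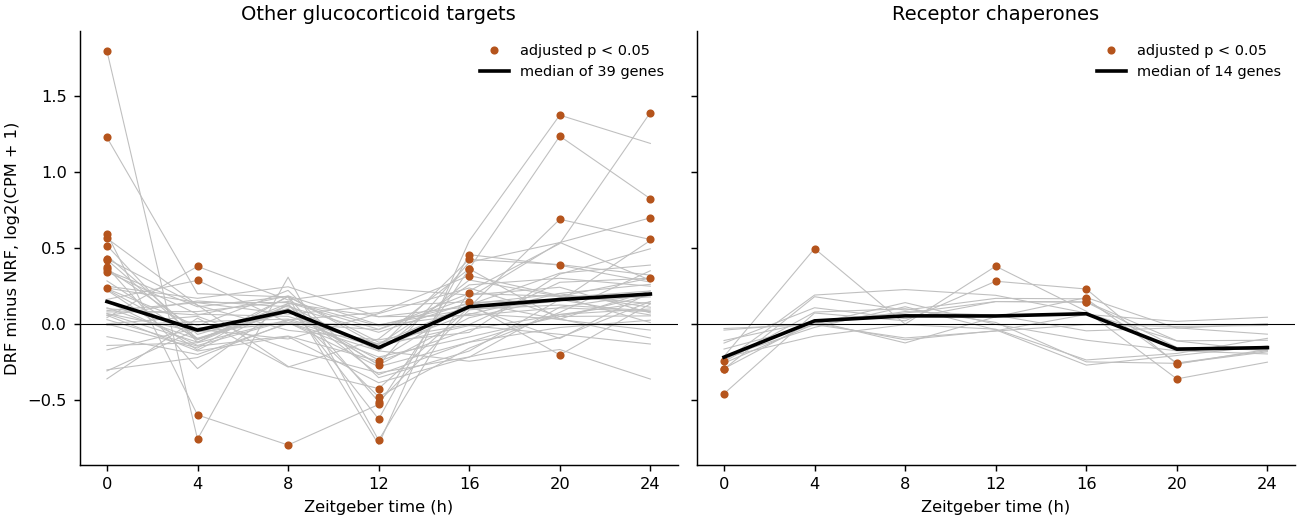
Difference DRF minus NRF on the log2(CPM + 1) scale (vertical axis) against zeitgeber time in h (horizontal axis) for 39 other glucocorticoid targets and 14 receptor chaperones, with 1 grey line per gene, an orange point where the adjusted p was under 0.05 and the median in black. The median of the targets was 0.15 at ZT0 and -0.16 at ZT12, and that of the chaperones -0.22 at ZT0 and 0.05 at ZT12.

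The promoter windows of RefSeq were also searched for the letters the receptor binds, on both strands. Of the 9 genes 7 had a window, 15 in all, and Nr3c1 and Zbtb16 had none. The motif AGAACA or its other strand TGTTCT stood in 5 of the 15 windows, of Tsc22d3, Sgk1 and Sult1a1, and in 19% of all 32851 windows. The palindrome of both, 3 bases apart, stood without a mismatch in 1 of the 15 and in 0.00913% of all, and with up to 2 mismatches in 3 of the 15 and in 1.84% of all. Besides the window shown, these were a window of Sgk1 with AGAAgAttcTGaTCT, 183 bases before the start, and the window of Sult1a1 with AGAACAgccaGTcCT, 34 bases before the start, where capitals mark the bases that match and the spacer is in lower case with the mismatches. The E-box CACGTG, the motif of the clock factors, stood in 2 of the 15, of Fkbp5 and Sgk1, and in 7.15% of all, and in the Sgk1 window shown it overlaps a TGTTCT at its 5′ end. A match is given as a description of the letters only, and binding outside these windows was not searched.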

How the data were processed

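Polyadenylated RNA of the anterior hypothalamus of 56 mice was sequenced. Per the study's methods and the submitters' notes, the authors removed low-quality reads, aligned to GRCm38.p6 with HISAT2 and Bowtie2, estimated gene levels with RSEM and scaled libraries by TMM. The labels give 100-base paired reads, and read lengths differ between the sources. The deposited table is called TPM, but its values are a score: log2(CPM + 1) divided by transcript length and rescaled by the authors to nearly the same total in every mouse, which shrinks differences between mice. That transformation was undone here. Of 17564 genes, 15373 came back as whole reads (within 0.05 of a whole number in at least 50 mice) and 1518 to 2 decimals, Sult1a1 among these, and the others could not be resolved. The count test was therefore limma-voom on these reads, as an alternative.

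Rhythm was tested on the deposited values with JTK_CYCLE and Lomb-Scargle, rewritten in Python and combined by Fisher's method (periods 20, 24 and 28 h), with Benjamini-Hochberg adjustment over 16245 transcripts. All other tests were limma 3.58.1 fits (empirical Bayes with a mean-variance trend) on log2(CPM + 1) of all 56 mice, adjusted over 16102 transcripts, with a threshold of 0.05, and all were two-sided. Both were checked on simulated data. The design had foreseen TPM values, and the fits were kept on the recovered scale. R 4.3.3, Python 3.11.15, numpy 2.4.6, pandas 2.3.3, scipy 1.17.1 and matplotlib 3.10.9 were used. Gene positions come from GENCODE on GRCm38.

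The 9 genes and the lists were chosen with earlier results of these data known. Every one of the 9 was described. Beside them, the 3 transcripts closest in course (those with a mean at or above the 25th percentile) and at most 3 called genes per list and test, by smallest p or largest difference, were named, except 1 transcript that is not reported here. Alternatives covered filters, pseudocounts (0.1 in place of 1), scaling, weights and left-out replicates, time points and libraries.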

Additional observations from a re-analysis of the deposited data

Results flagged for a closer look

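Each of the 9 genes was looked at in each of the 14 groups, 126 sets of 4 values. In 11 sets 1 mouse lay further from the others than Dixon's 95% bound allows, and 9 of the 11 were in DRF. In independent sets chance alone gives about 1 in 20. These sets are not independent, since a mouse can be counted in several genes that vary together. Replicate 3 of DRF at ZT8 stood out in Fkbp5 (29.9 CPM, the nearest 22.2), Zbtb16 (38.4 CPM, the nearest 14.4) and Sult1a1 (14.7 CPM, the nearest 10.7). Replicate 1 of DRF at ZT16 was the high mouse in Fkbp5 (44.7 CPM, the nearest 35.7) and Sgk1 (120.1 CPM, the nearest 47.8). Nr3c2 had a low mouse in DRF at ZT16 (15.2 CPM, the nearest 18.1), one of the libraries with a GC trend, and a high mouse in DRF at ZT20 (31.7 CPM, the nearest 21.7). Fkbp5 also had a high mouse in DRF at ZT4 (23.7 CPM, the nearest 22.6) and a low one in DRF at ZT24 (23.1 CPM, the nearest 28.). In NRF the mice apart were replicate 1 at ZT4 in Zbtb16 (19.2 CPM, the nearest 11.1) and replicate 3 at ZT24 in Sult1a1 (9.29 CPM, the nearest 13.3).

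The effect of time differed between the regimens in 3 results, each by the test of the difference in limma. The rhythm differed in Tsc22d3 (adjusted p = 0.0385) and in Sult1a1 (adjusted p = 0.0122), and the change from ZT0 and ZT24 to ZT4 differed in Tsc22d3, at -0.37 on the log2 scale for DRF minus NRF.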

How the results depend on the processing

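All values here are numbers of the 9 genes called, unless said otherwise. For rhythm in DRF, 3 in the report, JTK_CYCLE alone called 1 and Lomb-Scargle alone 0 (3 at an unadjusted p under 0.05), and leaving out a replicate number, a time point or the 2 ZT16 libraries gave 1 to 2. For rhythm in NRF, 6 in the report, Lomb-Scargle alone called 0 (6 unadjusted), and leaving out mice or times gave 3 to 6, the 3 without replicate 2. For the difference in rhythm, 2 in the report, array weights, the deposited values and log2(deposited value + 1) each gave 1, Sult1a1, and leaving out mice or times gave 0 to 3, the 0 without ZT0 or without ZT12. At the same zeitgeber time, 6 differences in the report, leaving out mice gave 0 to 5, and averaged over the day, 3 in the report, 0 to 4. Matched on light, 5 in the report, they gave 1 to 7, the 1 without replicate 3, and matched on food, 6 in the report, 5 to 8. Of the 36 pairs of genes, 9 in the report, 0 passed within NRF (7 unadjusted), and leaving out mice gave 6 to 12. Without replicate 3, 1 difference at the same time and 0 over the day passed, and without replicate 4, 0 at the same time. Leaving out mice or times leaves fewer mice in the fit, and otherwise the cause of these moves was not tested. Over all transcripts, the 132 rhythmic in DRF became 0 by Lomb-Scargle alone, 23 to 340 with mice or times left out and 1595 as any difference between times, the 4498 of NRF became 0, 2076 to 4435 and 7061, and the 1768 that differed in rhythm became 427 to 2065 with mice or times left out and 3123 with array weights. Of 33 single values with 473 alternatives, 376 kept direction and call, 97 kept the direction and lost the call, and 0 turned. Only the Tsc22d3 difference at the time food was due kept its call in every alternative run, and none of the alternatives took the cell markers into account.

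The replicate numbers do not pair the mice: over 364 pairs of same-numbered mice the deviations correlated at a median of 0.00163, against -0.00581 for other numbers. With the replicate block the calls were 3 for rhythm in DRF and 7 in NRF (both as a limma cosine, which called 3 and 7 without it), 2 for the difference in rhythm, 6 at the same time, 3 over the day, 5 by light and 6 by food. The libraries left out at ZT16, the trend removal and voom were chosen after seeing the data. Each of the 9 genes had 182 reads or more in every mouse.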

Other observations

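The coactivators and corepressors that work with the receptor, a list of 16, were higher in DRF at ZT4, where 6 passed upward and 0 downward in limma, against 2.79% of all transcripts upward (median log2 difference 0.18). Crebbp, a histone acetyltransferase, was higher by 0.23 ± 0.05 (SE), adjusted p = 0.00620, and Arid1a, a subunit of a chromatin remodelling complex, by 0.23 ± 0.06 (SE), adjusted p = 0.0139. Over the day 7 were higher and 0 lower, against 5.59% of all transcripts higher, with Arid1a at 0.11 ± 0.02 (SE), adjusted p = 0.00117. In NRF 10 of the 16 were rhythmic, where 27.7% of all transcripts were. In DRF 0 were rhythmic by the joined test (0.813% of all transcripts), 0 had an unadjusted p under 0.05 and 0 passed the limma cosine. By limma 2 differed in rhythm, Hdac3 and Smarca4 (adjusted p = 0.0182 and 0.0263), where 11.0% of all transcripts did. Matched on light 14 differed (26.0% of all transcripts), and matched on food 12 (29.6%).

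Of 14 genes that make, break down or carry the hormone, 7 were tested, and 2 were rhythmic in NRF: Abcb1a, an efflux pump of the blood-brain barrier (adjusted p = 0.000128), and Srd5a1, a steroid reductase (adjusted p = 0.00325). Of all transcripts 27.7% were rhythmic in NRF. Both genes differed in rhythm between the regimens by limma (adjusted p = 0.0295 and 0.0347), where 11.0% of all transcripts did. Srd5a1 was lower in DRF at ZT12 (-0.24 ± 0.06 (SE), adjusted p = 0.0310), and Abcb1b, another efflux pump gene, fell in DRF from ZT0 and ZT24 to ZT4 (log2 change -0.35 ± 0.08 (SE), adjusted p = 0.00566).

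Of 12 genes of the hypothalamic and pituitary stress axis, 10 were tested. In DRF 0 were rhythmic (1 at an unadjusted p under 0.05), where 0.813% of all transcripts were. In NRF 0 were by the joined test (0 unadjusted, 1 by the limma cosine), where 27.7% of all transcripts were. At ZT16 4 were higher in DRF by limma, against 6.69% of all transcripts, led by the receptor gene Crhr2 at 0.42 ± 0.12 (SE), adjusted p = 0.0154, and without the 2 libraries with a GC trend 0 were. Over the day 2 were higher, where 5.59% of all transcripts were, and again 0 without these libraries.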
